A study of Mus musculus with 12 samples.

Results

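The long noncoding RNA genes described here are the rows of the gene count table that the authors' annotation calls lincRNA or antisense_RNA and that held at least 10 counts in 3 or more of the 12 libraries, in whichever of the 4 conditions. This rule kept 1068 genes, 546 of them lincRNA and 522 antisense_RNA, out of 8034 rows of these biotypes and 54022 rows in all. The genes were thus chosen by their counts in these libraries, so the levels below are a description, and a gene can enter through a condition in which it was high. MIN6 cells, an insulin-secreting line from a mouse insulinoma with the genotype WT in the labels, were cultured for 18 h with vehicle or with 100 nM trimethylamine N-oxide (TMAO), a metabolite that the liver makes from a product of gut microbes. They were then given low glucose (2.8 mM, the concentration of the study's other low-glucose assays) or high glucose (16.8 mM) for a time that the sources used here do not give. The 4 conditions were low glucose with vehicle, low glucose with TMAO, high glucose with vehicle and high glucose with TMAO, each with 3 biological replicates of 1 cell line.

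The annotation uses lincRNA for long noncoding genes set apart from protein-coding genes and antisense_RNA for those opposite another gene, though some lincRNA genes here overlap a protein-coding gene. Long noncoding RNAs are transcribed and often spliced and polyadenylated like messenger RNAs but carry no long reading frame. Some stay in the nucleus and organise splicing or chromatin there, some silence neighbouring imprinted genes, and others are mainly the carriers from which microRNAs or small nucleolar RNAs (snoRNAs) are cut. Several, Malat1, Meg3 and the antisense RNA of Pax6 among them, have been studied in pancreatic β-cells, and glucose itself acts on transcription in these cells through calcium and cAMP.

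Sequence shows what some of these genes carry. RefSeq (GRCm38.p6) places 42 microRNA hairpins on the same strand inside 22 of the 1068 genes. These 22 were all tested for the response to glucose, and 3 of them, Gm3294, C78859 and C130071C03Rik, rose in high glucose by the test described below, where 4.13% of all genes rose. The last 2 are named after their values were seen. Their 5′ mature microRNAs are printed with the seed, bases 2 to 8, in capitals, because the seed decides which messenger RNAs a microRNA pairs with:
mmu-miR-129-5p, in Gm3294: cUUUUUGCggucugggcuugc
mmu-miR-138-5p, in C78859: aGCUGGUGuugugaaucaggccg
mmu-miR-9-5p, in C130071C03Rik: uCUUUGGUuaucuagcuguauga
The 3 seeds differ from one another. miR-129-5p is also made from a hairpin inside Mir670hg and miR-9-5p from one inside Mir9-3hg, and neither of these other host genes passed the test. The libraries measured the long host transcripts and not the mature microRNAs.

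A promoter window of 300 bases, from 250 before to 50 after the RefSeq start, was found for 495 of the genes and for 29 of the 67 that changed with glucose. In β-cells the cAMP response element (CRE) is bound by CREB, a factor that glucose and hormone signals activate, and the shorter form TGACG, its core, is bound as well. Windows are printed for 3 genes that rose and 1 that fell, chosen because they hold a CRE core, with the CRE cores on either strand (TGACG or CGTCA), the CRE palindrome TGACGTCA and the E-box CACGTG in capitals where they occur:
Gm14321, chr2:167777241-167777540, plus strand, rose: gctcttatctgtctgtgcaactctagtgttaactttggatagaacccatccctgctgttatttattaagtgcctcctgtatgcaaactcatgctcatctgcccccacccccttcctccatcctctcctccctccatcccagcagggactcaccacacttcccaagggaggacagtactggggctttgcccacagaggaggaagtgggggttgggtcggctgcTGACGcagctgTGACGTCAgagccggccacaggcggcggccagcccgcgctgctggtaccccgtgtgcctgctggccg
A730081D07Rik, chr13:41001097-41001396, minus strand, rose: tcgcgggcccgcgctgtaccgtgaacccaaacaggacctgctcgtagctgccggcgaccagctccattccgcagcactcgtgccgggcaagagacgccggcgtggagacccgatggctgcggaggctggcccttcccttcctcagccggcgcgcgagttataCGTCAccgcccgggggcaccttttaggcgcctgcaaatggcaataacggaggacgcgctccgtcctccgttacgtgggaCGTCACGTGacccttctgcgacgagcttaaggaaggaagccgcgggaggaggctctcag
D030047H15Rik, chr7:4136877-4137176, minus strand, rose: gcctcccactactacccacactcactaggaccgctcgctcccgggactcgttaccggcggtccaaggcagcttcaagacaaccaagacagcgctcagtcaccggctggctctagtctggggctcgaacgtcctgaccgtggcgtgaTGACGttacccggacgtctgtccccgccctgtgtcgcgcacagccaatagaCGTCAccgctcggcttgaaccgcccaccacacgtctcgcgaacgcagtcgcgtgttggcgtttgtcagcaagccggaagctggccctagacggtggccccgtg
Snhg12, chr4:132308428-132308727, plus strand, fell: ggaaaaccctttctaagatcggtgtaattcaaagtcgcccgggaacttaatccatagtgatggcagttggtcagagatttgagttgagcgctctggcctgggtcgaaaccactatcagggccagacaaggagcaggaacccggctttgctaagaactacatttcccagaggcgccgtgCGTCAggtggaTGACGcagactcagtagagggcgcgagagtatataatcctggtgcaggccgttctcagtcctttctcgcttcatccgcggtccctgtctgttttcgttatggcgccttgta
The window of Gm14321 was the one among the 29 with the full palindrome, which begins 17 bases before its start. In A730081D07Rik a core runs into an E-box. A730081D07Rik and D030047H15Rik met the count rule in high-glucose libraries alone, which favours a rise. The start in the count table lies 24 bases from the RefSeq start in Gm14321 and 5 bases from it in A730081D07Rik. In 6 of the 29 genes that changed it lies over 1000 bases away, up to 6376 in Gm30524.

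Motifs were counted over both strands. The CRE core was in 10 of the 29 windows of genes that changed (34.5%), in 26.7% of the 495 and in 20.8% of all 32851 RefSeq windows. Among the 10 are A730081D07Rik and D030047H15Rik, which met the count rule in high-glucose libraries alone. The palindrome, which always holds the core, was in 3.45%, 3.43% and 1.79% of the same 3 sets. The AP-1 site TGANTCA was in 4 of the 29 (13.8%) against 7.81% of all windows, and the Egr1 site GCGNGGGCG in 1 (3.45%) against 5.55%. The E-box CACGTG was in 2 (6.9%) against 7.15%. The CArG box was in 0 of the 29 and in 1.63% of all windows. A match gives the letters in these windows and not a bound factor, and 29 windows are few.

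The libraries held between 16793162 and 22340542 counts on genes, and the 1068 genes took between 0.528% and 0.687% of each. At least 1 count was found for between 1064 and 1068 of them per library. The filter of edgeR left 1045 of the 1068 in the test, among 16222 genes of all kinds, and 632 had at least 10 counts in every library. The 14 β-cell markers examined were all present, with Ins2 between 22781 and 27445 FPKM (fragments per kilobase of gene length and depth of the library). The 13 markers of other pancreatic and islet cells summed to between 202 and 231 FPKM, nearly all from Gcg, with Prss2, Krt19, Ptprc and Vim listed at 0. The summed markers of other cells lay between 225 and 231 FPKM in high glucose and between 202 and 220 in low glucose. The summed β-cell markers lay between 46470 and 49640 FPKM in high and between 41970 and 47710 in low glucose, which overlap. The part of these differences in the results below was not tested.

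As a class the long noncoding RNAs were scarce. Their median level over the 12 libraries was 0.901 FPKM, with quartiles of 0.422 and 2.02, against 7.09 FPKM for protein-coding genes under the same count rule. Of the 1068 genes, 46.4% lay over 1 FPKM, against 83.8% of the protein-coding genes, and 38 lay over 10 FPKM. The median gene held 24 counts per library and was 1698 bases long, against 4351 bases for the protein-coding genes. The counts were concentrated in few genes, since 1 gene took 16.8% of them, the top 3 took 32.4% and the top 10 took 46.7%.

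The most abundant was Malat1, the RNA of nuclear speckles, at 123 ± 41 FPKM in low glucose with vehicle, 119 ± 36 in low glucose with TMAO, 183 ± 8.0 in high glucose with vehicle and 185 ± 14 in high glucose with TMAO (mean ± SD, n = 3 here and for all condition means below). Gm42047, a lincRNA on chromosome 8, followed at 118 ± 14, 120 ± 18, 138 ± 4.0 and 140 ± 6.5 FPKM in the same order. Gm10076 had a mean of 145 ± 78 FPKM in high glucose with vehicle, and this SD came from replicate 3, with 1712 normalized counts where the other 11 libraries had between 577 and 880. In low glucose Malat1 and Gm42047 did not differ beyond their spread, and in high glucose Malat1 was above Gm42047 with either treatment.

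Next came Gm27168 and Gm27033 at 64.3 and 63.3 FPKM in low glucose with vehicle, and at 76.5 and 67.0 in high glucose with vehicle. Gm27033 lies 4872 bases from Pdx1, which encodes a transcription factor that maintains β-cell identity. Among the other genes of the top 10, Gm17201 overlaps Ankrd52 on the opposite strand, Fam120aos starts 270 bases from Fam120a, and 6430503K07Rik overlaps Nkx2-2, another β-cell transcription factor. In the plot of levels, the lincRNA and antisense genes share a peak near 1 FPKM, well below the peak of the protein-coding genes, and the lincRNA genes reach higher.

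**Figure D1:**
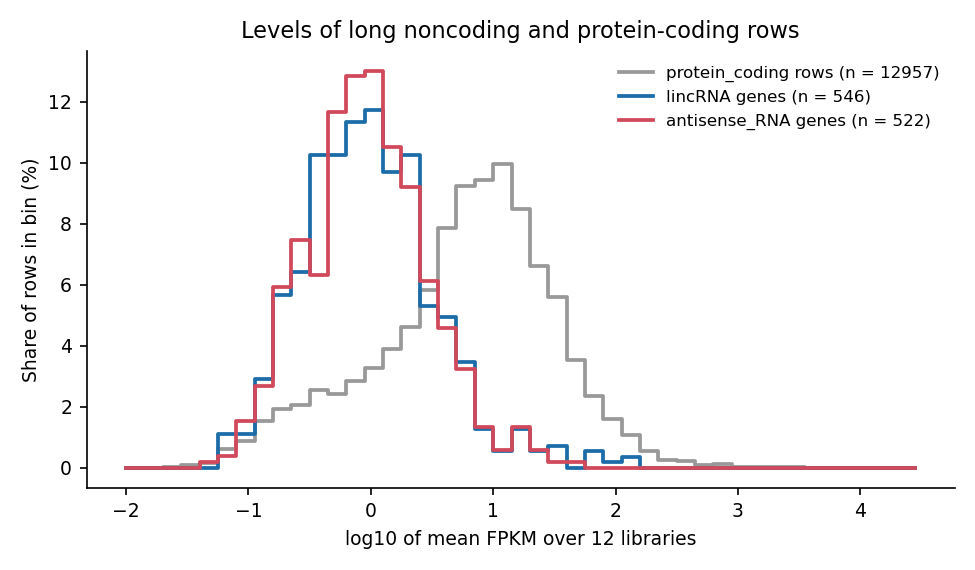
Share of genes, in percent, by the log10 of the mean FPKM over the 12 libraries, for 546 lincRNA genes, 522 antisense genes and 12957 protein-coding genes under the same count rule. The medians are 0.901 FPKM for the long noncoding RNAs and 7.09 FPKM for the protein-coding genes.

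The low-glucose libraries did not vary alike, and this comes before the comparisons because they rest on it. Malat1 had 10538, 16851 and 21460 normalized counts in replicates 1, 2 and 3 of low glucose with vehicle and 10507, 16594 and 20019 in those of low glucose with TMAO. The 6 high-glucose libraries lay between 23120 and 26536. Both replicate 1 libraries in low glucose were thus lowest, and the high-glucose libraries lay above all low-glucose ones. Neat1, the scaffold RNA of paraspeckles that is transcribed beside Malat1, had 2880, 3960 and 4961 with vehicle and 2895, 4027 and 5249 with TMAO, against 5362 to 6421 in high glucose. Gm42047 had 10908, 12843 and 13980 with vehicle and 10720, 13221 and 14513 with TMAO, against 14400 to 15722. The same 2 libraries were lowest for all 3 genes. The lincRNA genes as a whole took between 0.363% and 0.367% of counts in the 2 replicate 1 libraries of low glucose and between 0.432% and 0.508% in the other 10. No source used here says that replicates numbered alike were handled together.

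For Gm42047 the ranges of low and high glucose overlapped, and none of these 3 genes passed the test for glucose. The log2 fold change of Malat1, high against low glucose over both treatments, was 0.60 with a standard error of 0.20 and an adjusted p of 0.124 in edgeR's quasi-likelihood test. Neat1 had 0.54 (adjusted p = 0.102) and Gm42047 0.22 (adjusted p = 0.171) by the same edgeR test. Without the 2 replicate 1 libraries of low glucose, the values were 0.38 (adjusted p = 0.0775) for Malat1, 0.36 (adjusted p = 0.132) for Neat1 and 0.12 (adjusted p = 0.037) for Gm42047 in edgeR. Tug1, also in the list of nuclear RNAs, had 0.02 (adjusted p = 0.778), and Miat, which forms its own nuclear domain, had 0.05 (adjusted p = 0.89). Of the 4 members of that list, 0 rose and 0 fell, where 4.13% of all genes rose and 4.06% fell. Malat1 and Neat1 were the 2 of the 4 with an unadjusted p under 0.05, as were 20.1% of all genes. The plot of these RNAs by library shows the like spread of Malat1 and Neat1 over the low-glucose libraries.

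**Figure D2:**
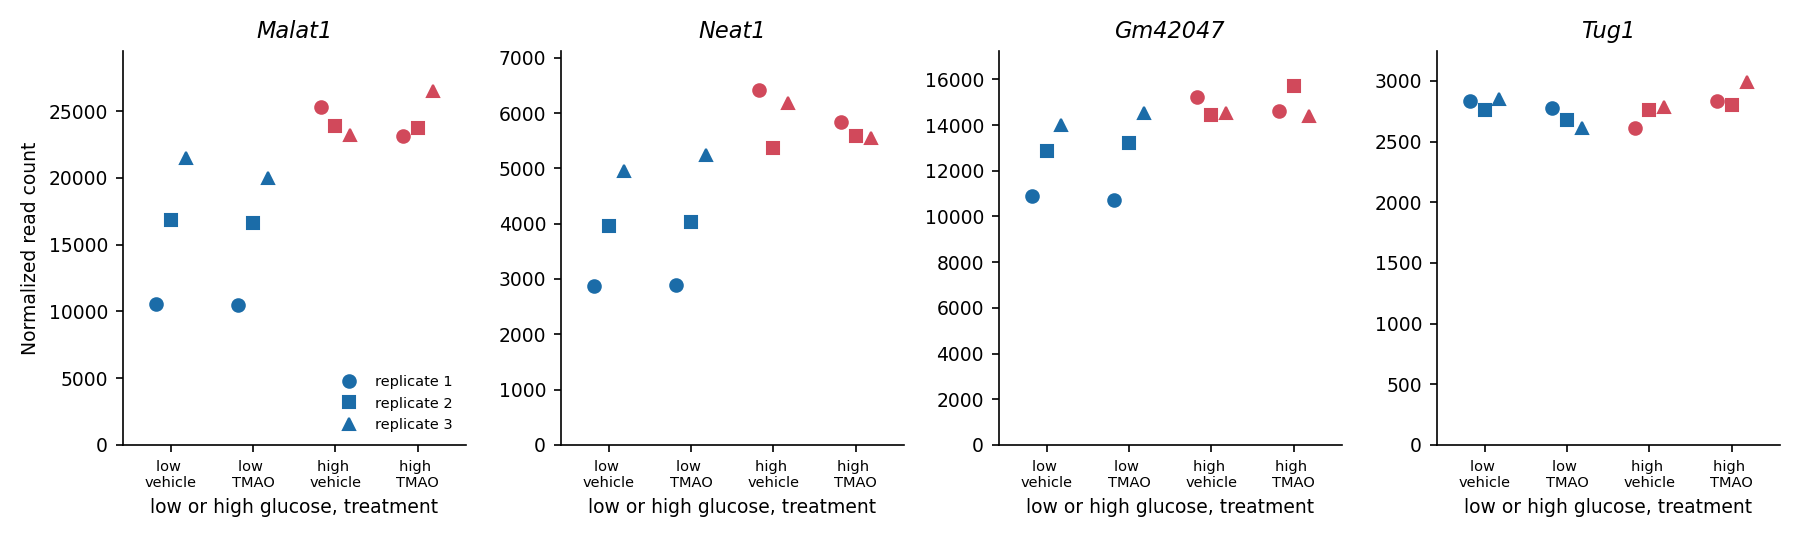
Normalized read counts of Malat1, Neat1, Gm42047 and Tug1 in each of the 12 libraries by glucose and treatment, each axis from 0, with a marker for each replicate number. In low glucose the libraries numbered 1 are lowest for the first 3 genes with either treatment, and Tug1 lies between 2612 and 2989 throughout.

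The response to glucose was the first question of the design, and it was asked with vehicle, with TMAO and over both. With vehicle, 25 of the 1045 genes tested (2.39%) changed at an adjusted p under 0.05 in edgeR's quasi-likelihood test, against 3.3% of all 16222 genes. Of these, 20 rose, where 1.99% of all genes rose, and 5 fell, where 1.31% of all genes fell. With TMAO, 29 changed (2.78% against 3.64% of all genes), 24 upward (2% of all genes) and 5 downward (1.64% of all genes). Of these, 17 genes were called in both, 68% of the 25 and 58.6% of the 29, each in the same direction, and over all genes tested the shared calls were 63.4% and 57.5%. Both comparisons come from 1 fit with a common estimate of the spread, and low-glucose libraries numbered 1 or 3 deviate together between the treatments. The counts fell without some single libraries, and so did the share of all genes. With vehicle, 15 calls were left without replicate 1 or 2 of low glucose or without replicate 2 of high glucose. Over all genes 2.29%, 2.07% and 2.47% were called in those fits. With TMAO, 11 were left without replicate 1 of low glucose, 13 without replicate 1 of high glucose and 17 without its replicate 3. Over all genes these fits called 2.21%, 2.51% and 2.08%.

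Over both treatments, 67 of the 1045 (6.41%) changed with glucose, against 8.19% of all genes tested. The 58 rises were 5.55% of the genes, where the background was 4.13%, and the 9 falls were 0.861%, where it was 4.06%. Of 533 lincRNA genes 30 rose and 7 fell, and of 512 antisense genes 28 rose and 2 fell. The rule lets a gene in through high glucose alone, and 9 of the 67 met it only in the high-glucose libraries. Among the 632 genes with 10 counts in every library, 31 rose (4.91%) and 9 fell (1.42%). In 33 of the 67, the 6 high-glucose libraries did not overlap the 6 low-glucose ones, and among all members such separation was found for 38 (3.64%), against 801 of all genes tested (4.94%). Leaving out replicate 1 of low glucose with vehicle left 42 calls (35 rises and 7 falls), where 6.18% of all genes were called. Leaving out both replicate 1 libraries in low glucose, a choice made after seeing the data, left 37 (29 rises and 8 falls). In that fit 5.63% of all genes were called.

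The middle of the distribution was shifted as well. The median log2 fold change with glucose was 0.09 over the 1045 genes and 0.001 over all genes tested, and it was -0.004 over the protein-coding genes, of which 521 rose and 637 fell. Without both replicate 1 libraries in low glucose the medians were 0.05 for the long noncoding RNAs and 0.001 for all genes. Among other noncoding rows, those called TEC (to be experimentally tested) had a median of 0.17, with 27 rises and 0 falls of 390, and the processed transcripts had 0.07. The plot of glucose responses against level shows rises below 1000 counts, none above, and no fall of a gene under 20 counts.

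**Figure D3:**
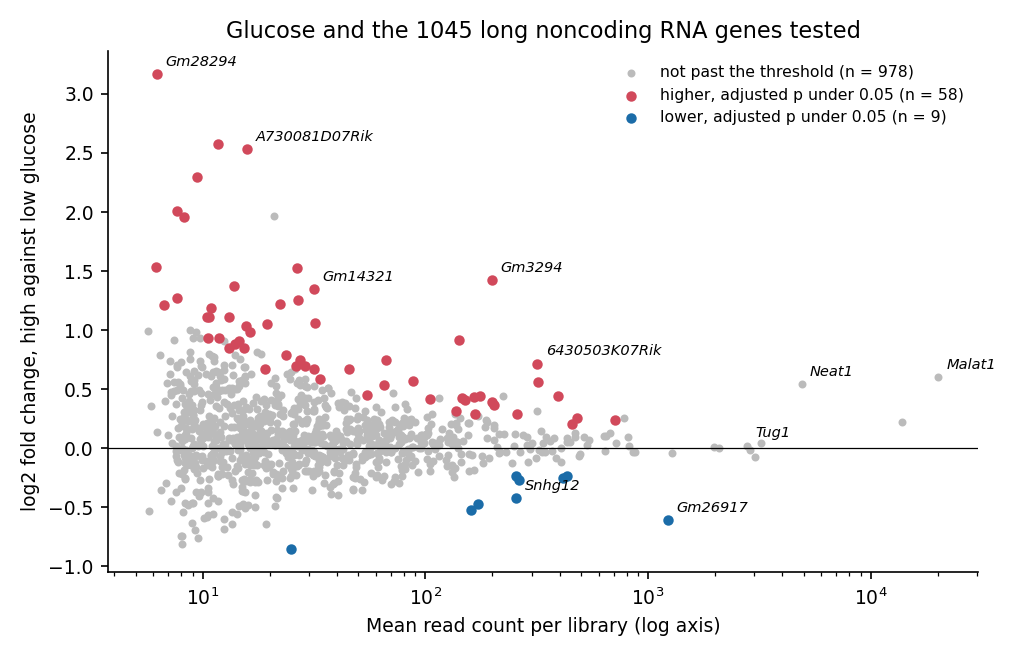
Log2 fold change of each tested long noncoding RNA gene, high against low glucose over both treatments, against its mean count on a log axis. Genes called at an adjusted p under 0.05 are coloured, 58 rises and 9 falls, and the scatter narrows with the count.

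Precision followed the count. In the 455 genes with under 20 counts per library the median standard error of a log2 fold change with vehicle was 0.42, and the 24 genes called there over both treatments (5.27%) all rose, where 3.26% of all genes with such counts were called. Among the 24 are the 9 that met the count rule in high glucose alone, which favours a rise. In the 436 genes with 20 to 100 counts it was 0.24 and 17 were called over both treatments (3.9% against 3.81% of all genes at these counts), 16 of them rises. In the 143 genes with 100 to 1000 counts it was 0.13 and 25 were called over both treatments (17.5% against 10%), 18 of them rises. The difference from all genes was not tested. In the 11 genes over 1000 counts it was 0.06, and 1 was called in the same comparison (9.09% against 10.6%).

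Gm3294, the host of miR-129, had the clearest response among the better-counted genes. This lincRNA at chr6:28981634-29028922, plus strand, had 104.2, 105.7 and 100.5 normalized counts in low glucose with vehicle and 85.8, 125.8 and 132.5 with TMAO. In high glucose it had 275.0, 244.0 and 339.1 with vehicle and 304.1, 278.8 and 320.0 with TMAO. All high-glucose libraries lay above all low-glucose libraries. The log2 fold change was 1.42 with a standard error of 0.10 (adjusted p = 5.83e-12 in edgeR), and it was 1.46 with vehicle and 1.39 with TMAO. Snd1, the nearest protein-coding gene among those tested, had -0.07 (adjusted p = 0.158).

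C78859, the host of miR-138 on chromosome 8, rose from a range of 197 to 307 normalized counts in low glucose (median 264) to 356 to 435 in high glucose (median 374), without overlap. Its log2 fold change was 0.56 (adjusted p = 6.08e-04 in edgeR). C130071C03Rik, the host of miR-9, whose nearest tested protein-coding gene is Mef2c, had 116 to 163 in low glucose and 151 to 224 in high glucose, which overlap, and a change of 0.44 (adjusted p = 1.37e-03 in edgeR). Among the 5 members of the list of microRNA host genes 1 rose, where 4.13% of all genes did. The list was drawn up by gene name and not from the hairpin positions above. The gene that rose was Mir124a-1hg, the host of a neuronal and endocrine microRNA, with 106 to 147 counts in low and 133 to 193 in high glucose and a change of 0.42 (adjusted p = 4.34e-03 in edgeR), a call lost without both replicate 1 libraries of low glucose. The other 4 had 0.19 (Mir670hg, adjusted p = 0.385), 0.22 (Mir124-2hg, adjusted p = 0.183), -0.08 (Mir9-3hg, adjusted p = 0.846) and 0.07 (Mirt1, adjusted p = 0.921), which did not pass. Whether Gm3294 differs from Mir670hg, or C130071C03Rik from Mir9-3hg, in its response was not tested.

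The largest fold changes came from genes that were nearly silent in low glucose. Gm28294 had 0 to 2.03 normalized counts in the 6 low-glucose libraries and 5.06 to 17.7 in the 6 high-glucose libraries, and a log2 fold change of 3.16 with a standard error of 0.51 (adjusted p = 4.82e-05 in edgeR). It met the count rule in high glucose alone, which favours a rise, and DESeq2 did not call it. It lies inside Ptprn, which encodes a protein of the insulin granule membrane and held 3523 times its counts, and 49.0% of its exon bases lie on coding exons of the other strand. Ptprn had 0.02 (adjusted p = 0.814). D030047H15Rik, opposite the membrane protein gene Ttyh1, went from 0 to 7.74 counts (median 3.01) to 10.1 to 31.0 (median 18.3), with a change of 2.58 (adjusted p = 2.57e-05 in edgeR). A730081D07Rik, opposite Gcnt2, the enzyme that branches cell-surface glycans, went from 1.98 to 9.10 (median 4.01) to 21.2 to 32.0 (median 27.8), with a change of 2.53 (adjusted p = 9.24e-08 in edgeR). All 3 genes met the count rule in high glucose alone, which favours a rise and a separation of the libraries. Their folds and adjusted p are thus a description. In all 3 the high-glucose libraries lay above the low-glucose ones, and the reads were few. Ttyh1 had 0.23 (adjusted p = 5.78e-05) and Gcnt2 0.42 (adjusted p = 2.17e-06) in edgeR, and without strand the reads of such pairs cannot be told apart.

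AC158804.1, inside Mdm1, rose by 2.30 on the log2 scale (adjusted p = 1.53e-05 in edgeR), from 1.94 to 5.93 counts to 13.3 to 17.6, beside 0.18 for Mdm1 (adjusted p = 1.15e-03 in edgeR). AC167669.2, a lincRNA beside Smim13, went from 5.93 to 23.3 counts to 32.4 to 49.7 and rose by 1.52 (adjusted p = 1.71e-05 in edgeR). The other genes among the 12 largest rises were Gm44785 (2.01), Gm26658 opposite the granule protein gene Syt4 (1.95, beside 0.37 for Syt4), 2210417A02Rik (1.54), Gm44781 opposite Lmo1 (1.37), Gm14321 (1.35) and Gm26859 opposite Syt7 (1.27). The remaining 46 rises were of 0.20 to 1.25. In 2210417A02Rik and Gm26859 the ranges of high and low glucose overlapped, and both calls held in just 4 of the 12 fits that left out 1 library each and were lost in DESeq2 and without both replicate 1 libraries of low glucose. Gm28294, D030047H15Rik, A730081D07Rik, AC158804.1, Gm44785, Gm26658, 2210417A02Rik, Gm26859 and AC133947.1 are the 9 that met the count rule in high-glucose libraries alone. The rule thus favoured a rise in them, and their folds, adjusted p and separated ranges are given as a description. Of these, Gm28294, 2210417A02Rik, Gm26658, Gm26859 and AC133947.1 had 10 counts in just 3 libraries.

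Gm14321, whose promoter window holds the CRE palindrome, had 9.75 to 25.3 normalized counts in low glucose (median 19.1) and 34.4 to 54.9 in high glucose (median 45.3). Its change was 1.35 with a standard error of 0.20 (adjusted p = 1.35e-05 in edgeR). 9230111E07Rik overlaps it on the same strand and rose by 1.22 (adjusted p = 9.94e-04 in edgeR), so their reads cannot be told apart where they overlap. The nearest tested protein-coding gene, 87049 bases away, is Cebpb, which encodes a transcription factor of the C/EBP family and had 0.52 (adjusted p = 6.35e-08 in edgeR).

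6430503K07Rik, which overlaps Nkx2-2 on the opposite strand, was among the 10 most abundant genes. It had 231.5 ± 37.0 normalized counts in low glucose with vehicle, 250.1 ± 30.0 in low glucose with TMAO, 410.2 ± 30.5 in high glucose with vehicle and 379.8 ± 13.4 in high glucose with TMAO. The log2 fold change was 0.72 with a standard error of 0.07 (adjusted p = 1.11e-08 in edgeR), and the 6 and 6 libraries did not overlap. Nkx2-2 itself had 0.21 (adjusted p = 1.45e-05 in edgeR) and 9.19 times the counts. Of the same 10, Gm27168 also rose, by 0.26 (adjusted p = 9.02e-04), and Gm13373 by 0.24 (adjusted p = 3.04e-03 in edgeR).

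The largest fall, 4932702P03Rik opposite the succinate semialdehyde dehydrogenase gene Aldh5a1, fell by 0.85 on the log2 scale (adjusted p = 0.0236 in edgeR) with overlapping ranges, 15.6 to 46.5 normalized counts in low and 11.1 to 29.6 in high glucose. It was called in 5 of the 12 fits that left out 1 library each, and limma did not call it. Gm26917 had 1202 to 1670 in low glucose (median 1525) and 887 to 1084 in high glucose (median 946), and fell by 0.61 (adjusted p = 5.64e-04 in edgeR). It lies on chromosome 17 at an annotated ribosomal RNA locus, and whether reads of ribosomal RNA are counted on it was not tested.

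Snhg12 and Epb41l4aos, both hosts of snoRNAs, which guide the modification of ribosomal RNA, fell. Snhg12 had 267 to 315 normalized counts in low glucose (median 296) and 204 to 237 in high glucose (median 214), and fell by 0.42 with a standard error of 0.07 (adjusted p = 4.75e-05 in edgeR). Epb41l4aos had 176 to 218 (median 203) and 137 to 148 (median 145), and fell by 0.47 (adjusted p = 6.72e-05 in edgeR). In both genes the high-glucose libraries lay below all low-glucose ones with either treatment. The other 3 members of the snoRNA host list had -0.12 (Snhg6, adjusted p = 0.227), -0.05 (Snhg20, adjusted p = 0.718) and -0.23 (Snhg10, adjusted p = 0.327), so 2 of 5 fell, where 4.06% of all genes fell, and 0 rose. The list names 21 hosts, 19 of them in the count table. Those that are not members have another biotype or missed the count rule and are not described here. The remaining falls, shown by library in the plot of rises and falls, were 2610035D17Rik (-0.52), 1700052K11Rik (-0.27), 4632415L05Rik (-0.26), Gm46430 (-0.24) and Gm2861 (-0.24). The call of Gm46430 held in 5 of the 12 fits that left out 1 library each and that of 1700052K11Rik in 7.

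**Figure D4:**
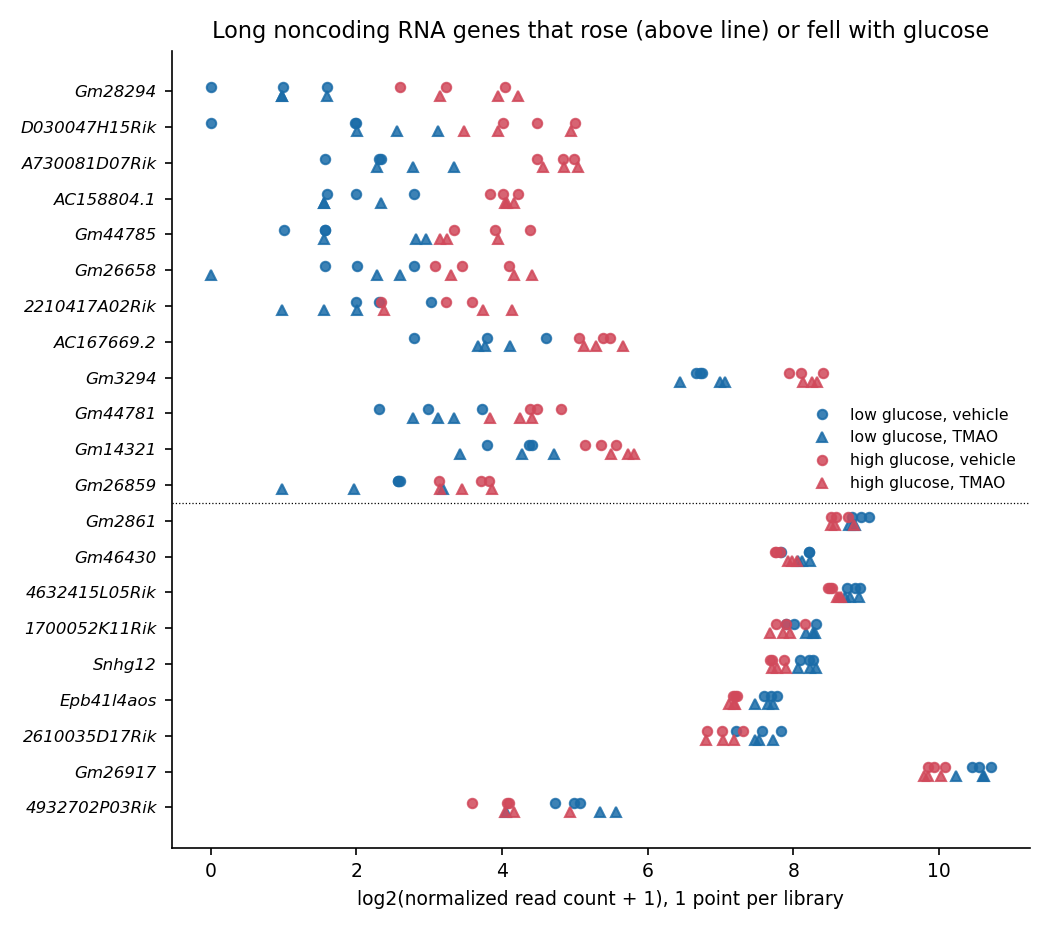
The log2 of the normalized read count plus 1, with 1 point per library, for the 12 largest rises (above the dotted line) and the 9 falls with glucose, by condition. For Gm3294 all high-glucose points lie to the right of the low-glucose points, and for Snhg12, Epb41l4aos and Gm26917 they lie to the left.

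The other lists held few changes. Of all genes, 4.13% rose and 4.06% fell. Of 5 members of imprinted domains 1 rose, Airn, the RNA that silences Igf2r on the paternal chromosome, with 35.7 to 51.8 normalized counts in low glucose and 52.0 to 72.8 in high glucose and a change of 0.45 (adjusted p = 0.0392 in edgeR). This call held in 5 of the 12 fits that left out 1 library each, and was lost in DESeq2, in limma and without both replicate 1 libraries of low glucose. Igf2r, which Airn overlaps and which held 87.9 times its counts, had 0.07 (adjusted p = 0.257). Meg3 had 0.51 (adjusted p = 0.0953), Nespas 0.80 (adjusted p = 0.0515), Mirg 0.20 (adjusted p = 0.112) and Kcnq1ot1 0.09 (adjusted p = 0.76), none of which passed. Without both replicate 1 libraries of low glucose, Meg3 had 0.31 (adjusted p = 0.452 in edgeR).

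Of 3 members of the X inactivation list, Xist, Jpx and Ftx, 0 rose and 0 fell, where 8.19% of all genes were called, with changes of 0.34, 0.12 and 0.09 (adjusted p from 0.07 to 0.641). Of 7 members of the stress, p53 and growth list 0 rose and 0 fell. Lockd, with 1948 to 2197 counts in low and 1862 to 2226 in high glucose, had -0.002 (adjusted p = 0.988). 2900097C17Rik had -0.02 (adjusted p = 0.854), and Trp53cor1, also known as lincRNA-p21, had -0.03 (adjusted p = 0.946). Of the 7 genes studied in islets before, among them Pax6os1 (0.13, adjusted p = 0.563) and Paupar (0.20, adjusted p = 0.511), both transcribed from the Pax6 locus, again 0 rose and 0 fell. In edgeR an unadjusted p under 0.05 was found for 1 gene of the X inactivation list, 1 of the stress list and 2 of the islet list. It was found for 4 of the 5 imprinted genes, 3 of the 5 snoRNA hosts and 2 of the 5 genes in the microRNA host list. Over all 1045 genes it was found for 184 (154 upward and 30 downward), which is 17.6% against 20.1% of all genes. DESeq2 called 42 of the 1068 genes in this comparison and 1160 genes of all kinds, where edgeR called 67 of 1045 and 1328. The 1160 are 3.74% of all rows with any count. That is a wider set than the 16222 genes of edgeR, so this share is not a like background. Limma called 64 of the 1045 at a pseudocount of 0.1, and 6.51% of all genes.

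Position was described next, because reads from this kit do not tell strands apart. Of the 1068 genes, 550 overlapped a tested protein-coding gene on the opposite strand, 27 overlapped one on the same strand, 137 stood head to head with one, with starts at most 2000 bases apart, and 354 were elsewhere. Of 538 tested genes on the opposite strand 32 rose and 2 fell (6.32%), of 349 elsewhere 25 rose and 7 fell (9.17%), of 133 head to head 1 rose and 0 fell (0.752%), and of 25 on the same strand 0 were called. The background was 6.41% of the 1045 and 8.19% of all genes, and the difference between positions was not tested. In 29 of the 34 opposite-strand genes that changed, the protein-coding partner held over 10 times the counts. In GENCODE M21 (GRCm38), 22 of 66 called genes found there had exon bases on coding exons of such genes, and 44 had none, while 438 of all 1060 members found there had such bases. The other 33 called genes overlap no tested protein-coding gene.

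Members and neighbours moved alike little more often than not. The fold changes with glucose had the same sign in 569 of 1045 pairs (54.4%), and in 46 of the 67 pairs with a called long noncoding RNA. In 14 of the 67 both genes were called, where the partner was called in 141 of all 1045 pairs. Of the 14, 13 had the same sign. Gm28727, whose start lies 221 bases from that of Tgif1, which encodes a transcriptional corepressor, was the 1 head-to-head gene called, with a change of 1.25 (adjusted p = 1.49e-04 in edgeR) beside 1.40 for Tgif1 (adjusted p = 1.03e-17 in edgeR). Gm14508 was the exception, with 1.06 (adjusted p = 1.81e-04 in edgeR) beside -0.13 for Prkab1 on the opposite strand, a subunit of AMP-activated kinase (adjusted p = 7.2e-03 in edgeR). The plot of called genes and neighbours shows both pairs, the first at its right edge.

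**Figure D5:**
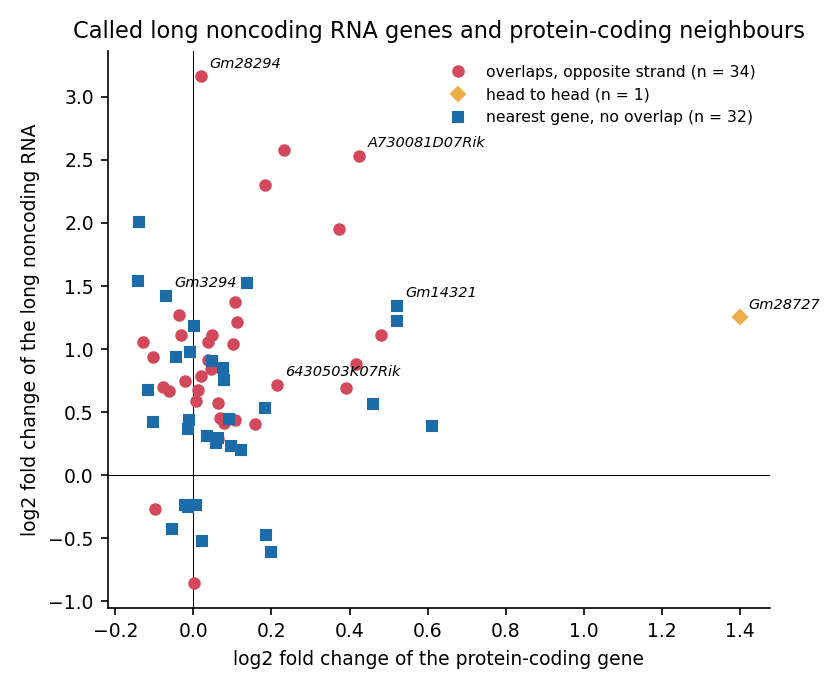
Log2 fold change with glucose of the 67 called long noncoding RNA genes against that of the protein-coding gene they overlap or lie nearest to, by position (34 on the opposite strand, 1 head to head, 32 without overlap). Most partners lie near 0 while the long noncoding RNAs spread from -0.85 to 3.16, and Gm28727 with Tgif1 stands apart to the right.

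Of 43 genes listed for their response to glucose or activity, 3 had a member overlapping them or starting close by, and none of the 3 members was called. Gm6225 had 0.19 (adjusted p = 0.622) beside 1.04 for Crem, the cAMP-responsive modulator (adjusted p = 2.01e-07 in edgeR). Junos had 0.15 (adjusted p = 0.791) beside -0.33 for Jun (adjusted p = 5.44e-06 in edgeR). Gm15441 had -0.01 (adjusted p = 0.993) beside -0.76 for Txnip, the glucose-regulated inhibitor of thioredoxin (adjusted p = 2.94e-13 in edgeR), and held 3.95 to 13.3 normalized counts in the 12 libraries.

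The response to TMAO was the second question. At low glucose edgeR's quasi-likelihood test called 0 of the 1045 genes, where 0.00616% of all genes were called, which is 1 gene, the protein-coding Egr1. At high glucose it called 0, where 0% of all genes were called, and over both glucose levels 0, also where 0% were. The interaction, which asks whether TMAO changed the response to glucose, gave 0, again with 0% of all genes. At an unadjusted p under 0.05 there were 31 members at low glucose, 41 at high glucose, 40 over both and 31 for the interaction, of 357, 868, 588 and 545 genes of all kinds. DESeq2 and limma called 0 members in these comparisons as well.

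Genes with the lowest unadjusted p are given as values only. At low glucose Gm17276, which overlaps Notch3, had 34.7, 33.6 and 25.4 normalized counts with vehicle and 11.7, 13.5 and 18.2 with TMAO, a log2 difference of -1.11 with a standard error of 0.29. Gm10501 had -1.25 and Ube4bos1 -1.45. The adjusted p of all 3 was 1.00 in edgeR. Gm17276 did not overlap between the treatments at low glucose, and at high glucose it had 42.5, 35.3 and 38.8 with vehicle and 38.3, 30.4 and 23.2 with TMAO.

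At high glucose Gm7628 had 99.1, 77.0 and 83.1 normalized counts with vehicle and 57.4, 56.6 and 55.2 with TMAO, a difference of -0.61 (adjusted p = 0.912 in edgeR). E230014E18Rik had -1.15 and Tspan2os 1.20. For the interaction, C920021L13Rik had -1.61, made of 0.76 at low and -0.85 at high glucose (adjusted p = 1.00 in edgeR), and Gm7628 and Gm44686 had -0.82 and -0.96. Over both glucose levels Gm17276 had -0.72, Gm26617 0.31 and Gm10822 -1.26.

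How far these data bound an effect of TMAO depended on the count. The 95% interval of the difference lay within 2-fold in either direction for 692 of the 1045 genes at low glucose (66.2%) and 676 at high glucose (64.7%). In genes with under 20 counts this held for 31.2% and 28.1%. For all 11 genes over 1000 counts it held at both levels, and for 143 and 142 of the 143 genes with 100 to 1000. Tug1 had -0.07 at low glucose, with an interval from -0.16 to 0.03, and 0.08 at high glucose, from -0.01 to 0.17. Malat1 had -0.05 (from -0.70 to 0.60) and 0.02 (from -0.63 to 0.66), a wide interval for so abundant a gene.

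At the edge of the count rule, 45 rows had 10 as their third-highest count and 69 had 9. Lrp8os2, Gm26850 and 4933406C10Rik are among those just inside, with 0 to 12, 1 to 11 and 1 to 11 counts per library. Gm11457, Gm36423 and Gm4262 are among those just outside, with 4 to 15, 5 to 17 and 5 to 13. The counts of the 2 sides overlap almost wholly.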

How the data were processed

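Total RNA of 12 MIN6 cultures, 3 for each of 4 conditions, was selected with poly-T beads and made into libraries with NEBNext Ultra, a kit that does not mark strand. The submitters' processing notes name HISAT2 2.0.5, featureCounts 1.5.0-p3, DESeq2 1.16.1 and the build mm10. The authors deposited raw fragment counts per gene, with biotype, coordinates and length, and FPKM values for the same genes. Groups and replicate numbers come from the labels. P-values measure the spread between these cultures of 1 line.

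Counts were tested in R 4.3.3 with edgeR 4.0.16: filterByExpr by condition, TMM normalization (factors 0.994 to 1.009), and robust quasi-likelihood F tests from 1 fit of the 4 condition means over all 12 libraries. P-values were adjusted over all 16222 genes tested (Benjamini-Hochberg), with a threshold of 0.05 on the adjusted p. The biological coefficient of variation was 5.34%. Normalized counts are scaled by TMM library sizes. The deposited FPKM values imply library totals within 1.37% of the summed counts. Depth was 16793162 to 22340542 counts per library. No 2 libraries were as alike as draws from 1 library.

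The genes and lists (nuclear body, imprinted, X inactivation, snoRNA host, microRNA host, stress and growth, islet, partners of glucose-response genes, cell markers) were chosen with earlier results of these data known. Of the listed long noncoding RNAs only members were used. These were 4 of 7 nuclear, 5 of 11 imprinted, 3 of 6 X inactivation and 5 of 21 snoRNA host genes. They were also 5 of 16 microRNA host, 7 of 25 stress and growth and 7 of 14 islet genes. Genes named are the 10 highest by mean FPKM, up to 12 rises and 12 falls per comparison, the 3 lowest p where none was called, the list members, their protein-coding partners, and 3 rows on each side of the count rule. C78859 and C130071C03Rik were named after their values were seen. Neighbours were found from the coordinates in the table, exons from GENCODE M21, and sequences from RefSeq (GRCm38.p6).

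Alternatives were DESeq2 size factors, the Wald test of DESeq2 1.42.0, other filters, a block for the replicate number, other count rules for the genes, and libraries left out. FPKM values were also tested with limma 3.58.1 on the log2 scale with pseudocounts of 0.1 and 1, where fold changes of low genes are understated. Steps were tested on simulated data.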

Additional observations from a re-analysis of the deposited data

How the results depend on the processing

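Counts of called genes moved with the processing. With vehicle, the 25 calls became 13 with the Wald test of DESeq2 and 15 where every library had to hold 10 counts. Calls over all genes went from 536 to 483 and 507 in the same fits. The 25 became 14 under the rule of 10 counts in all 12 libraries and 14 without genes that overlap a protein-coding gene. Leaving out single libraries gave 15 to 29, with 15 without replicate 1 or replicate 2 of low glucose with vehicle or replicate 2 of high glucose with vehicle. Calls over all genes were 379, 341 and 407 in those fits. With TMAO, the 29 became 18 and 17 with limma at pseudocounts of 0.1 and 1, 19 without overlapping genes, and 12 without both replicate 1 libraries in low glucose. Calls over all genes went from 591 to 334 and 351 with limma and to 363 without both replicate 1 libraries. Single libraries gave 11 to 29, with 11 without replicate 1 of low glucose with TMAO, and 13 and 17 without replicates 1 and 3 of high glucose with TMAO. Calls over all genes were 365, 415 and 344 in those fits. Over both treatments, the 67 became 42 with DESeq2, 41 and 40 under the 2 stricter count rules and 33 without overlapping genes. They became 37 without both replicate 1 libraries, and single libraries gave 42 to 73. The 2 stricter count rules test 632 genes and the set without overlapping genes 482, in place of 1045. The 40 calls are 6.33% of 632, beside 6.41% of the 1045. Calls over all genes moved too, from 1328 (8.19%) to 1160 with DESeq2. They were 1258 (8.85%) where every library had to hold 10 counts and 925 (5.63%) without both replicate 1 libraries. With DESeq2 the share of 3.74% is of all rows with any count, a wider set than the 16222 genes of edgeR. Of the 67 genes, 35 stayed called with each library left out in turn, 39 in DESeq2 and 51 in limma. The cause of these changes was not tested, except that the stricter rules and the set without overlapping genes test fewer genes.

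No source says that libraries numbered alike belong together, and not every such pair correlated over 0.1, so the pairing was not used. Correlations of deviations between same-numbered libraries were 0.213, 0.0275 and 0.147 in low glucose and between -0.0377 and 0.0659 elsewhere, and 5 of the 6 low-glucose libraries correlated best with their own number, which is a hint from the data and not the design. A replicate block gave 32 calls with vehicle, 32 with TMAO and 76 over both treatments. The shares of all genes called rose as well, from 3.3%, 3.64% and 8.19% to 4.42%, 4.83% and 10.3%. For TMAO the block called 0 members, also in the 6 low-glucose libraries alone, where 27 genes of all kinds were called. Among 105 named fold changes, signs turned in 10 genes with glucose over both treatments, none of them called. Over single libraries left out they ranged across 0 in Gm10076 (-0.01026 to 0.3622), Miat (-0.03238 to 0.1227), Snhg20 (-0.08703 to 0.01345), Mir9-3hg (-0.1559 to 0.01324), Mirt1 (-0.1278 to 0.1947), 2900097C17Rik (-0.03011 to 0.005142), Lockd (-0.02834 to 0.02261), Trp53cor1 (-0.1157 to 0.03646) and Flicr (-0.1231 to 0.3376). Gm10076 turned without replicate 3 of high glucose with vehicle. Without both replicate 1 libraries in low glucose, Miat had -0.1159, Kcnq1ot1 -0.04012 and Mirt1 -0.1154, and where every library had to hold 10 counts Lockd had 0.000251. In every alternative run, 0 members were called for TMAO or the interaction. Depth limits most the 455 genes under 20 counts.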

Other observations

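Some values belong to no comparison above, and the genes in this part were chosen after their values were seen. Gm45351 had the largest rise that was not called, 1.96 with a standard error of 0.92 (adjusted p = 0.288 in edgeR), and it rested on 86.3 and 69.8 normalized counts in single high-glucose libraries where the median of the 6 was 18.3. 1700020I14Rik, which RefSeq lists as Cyrano, the RNA that triggers decay of miR-7, had 19.1 FPKM on average and -0.07 with glucose (adjusted p = 0.329 in edgeR). Igf2os, antisense to the growth factor gene Igf2, had 19.6 FPKM and 0.01 (adjusted p = 0.904), and Brip1os had 26.2 FPKM and 0.04 (adjusted p = 0.489). Under TMAO, 5 of the 1045 genes (0.478%) had all libraries higher than vehicle at one glucose level and all lower at the other, against 52 of 16222 genes tested (0.321%).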
